A study of Homo sapiens with 6 samples.

Results

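The cytosolic and mitochondrial chaperones described here were chosen by symbol, as the rows of the deposited table whose gene name equals 1 of 45 listed names. All 45 were found among 58273 rows, each in 1 row. They comprise 8 genes of the HSP70 family, 3 of the HSP90 family, the pair HSPD1 and HSPE1, the small heat shock protein HSPB1, 12 J proteins, 3 BAG proteins, 6 co-chaperones of HSP90, the 8 subunits of the cytosolic chaperonin CCT, and HSF1 and STUB1. RNA was measured by paired-end sequencing in 6 libraries of human cells labelled Daudi, a line established from a Burkitt lymphoma. In 3 libraries the cells carried a short hairpin RNA against ENO1 (shENO1), the gene of the glycolytic enzyme alpha-enolase. The other 3 came from wild type cells without that hairpin. Replicates are numbered 1 to 3 in each group, no library is labelled as holding a control hairpin, and the labels give neither the hairpin sequence nor the number of clones. Whether the replicates were grown separately is not stated, and the p-values therefore rest on a spread between libraries that may be technical.

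Chaperones help other proteins to fold, refold or be destroyed. J proteins deliver unfolded clients to HSP70, which holds and releases them as it hydrolyses ATP, and nucleotide exchange factors such as HSPH1 and the BAG proteins let the client go. HSP90 takes over from HSP70 for clients such as kinases and steroid receptors, helped by its co-chaperones. The chaperonins HSPD1 with HSPE1 in mitochondria and CCT in the cytosol enclose a client in a chamber, CCT being needed for actin and tubulin. HSF1 is the transcription factor that raises many of these genes after heat or other damage to proteins, and tumour cells often hold high levels of the system.

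ENO1 itself stood at 212, 242 and 368 FPKM in the shENO1 libraries, against 927, 998 and 1747 FPKM in the wild type libraries. FPKM is the number of fragments scaled to transcript length and library size. Its mean of 274 ± 82.9 FPKM in shENO1 was 22.4% of the 1224 ± 454 FPKM in wild type (SD, n = 3 each). The FPKM values of a library summed to between 958697 and 1053890, and the table holds no absolute depth. Relative to wild type replicate 1, the depth estimated from the steps between low values was 1.02 to 1.27 in shENO1 and up to 1.16 in wild type. The protein-coding genes took up 546243 FPKM in shENO1 replicate 3 and 557264 FPKM in wild type replicate 3, against 494058 to 506356 FPKM in the other 4 libraries. Measured markers of B cells were low for cells of that label. Of 12 such markers 1, CD74, reached 10 FPKM, and CD79A lay between 0.604 and 1.66 FPKM. MS4A1 and IGHM reached at most 0.101 and 0.0475 FPKM, and CD79B and BLK were listed at 0 in all 6 libraries, from which no level is read. Of 13 myeloid markers 9 reached 10 FPKM, among them CTSG, LYZ, AZU1 and SPI1, while MPO and CD14 reached at most 0.161 and 0.375 FPKM. Together the 13 summed to 1299 FPKM in shENO1 replicate 3, against 770 and 1155 FPKM in the other shENO1 libraries. In wild type they summed to 1252 FPKM in replicate 3, against 717 and 1202 FPKM in the other libraries. That order rested on LYZ, and the sum without it was 817 FPKM in shENO1 replicate 3 and 791 FPKM in wild type replicate 3, against 584 and 935 FPKM in the other shENO1 libraries and 563 and 1020 FPKM in the other wild type libraries. The summed B cell markers were lowest in the libraries numbered 3, at 102 FPKM in shENO1, against 141 and 149 FPKM in its other libraries, and at 130 FPKM in wild type, against 163 and 205 FPKM in its other libraries. In shENO1 that order rested on CD74, as the other 11 summed to 16.50 FPKM in replicate 3, against 20.01 and 16.43 FPKM in its other libraries. In wild type replicate 3 stayed lowest without CD74, at 17.4 FPKM against 18.7 and 18.3 FPKM.

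No chaperone gene passed the test between shENO1 and wild type, while many were higher in the libraries numbered 3 of both groups. Of the 45 genes 43 entered the test, which required 0.5 FPKM or more in 3 or more libraries. HSPA1A and HSPA1B, the heat-inducible HSP70 genes, did not, being listed at 0 in all 6 libraries. The mean level over the 6 libraries was between 100 and 1000 FPKM for 16 of the 43, between 10 and 100 FPKM for 21, and lower for 6, with HSPA8 at the top and BAG3 at the bottom. HSPA8, HSP90AB1, HSP90AA1 and HSPD1 were the 4 most abundant. The 43 genes summed to 7069 FPKM in shENO1 replicate 3 and 7609 FPKM in wild type replicate 3, against 3830 to 4073 FPKM in the other 4 libraries. That was 1.29% and 1.37% of the protein-coding sum in the libraries numbered 3, against 0.775% to 0.815% in the others, so the chaperone sum differed by more than the protein-coding sum did.

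**Figure D1:**
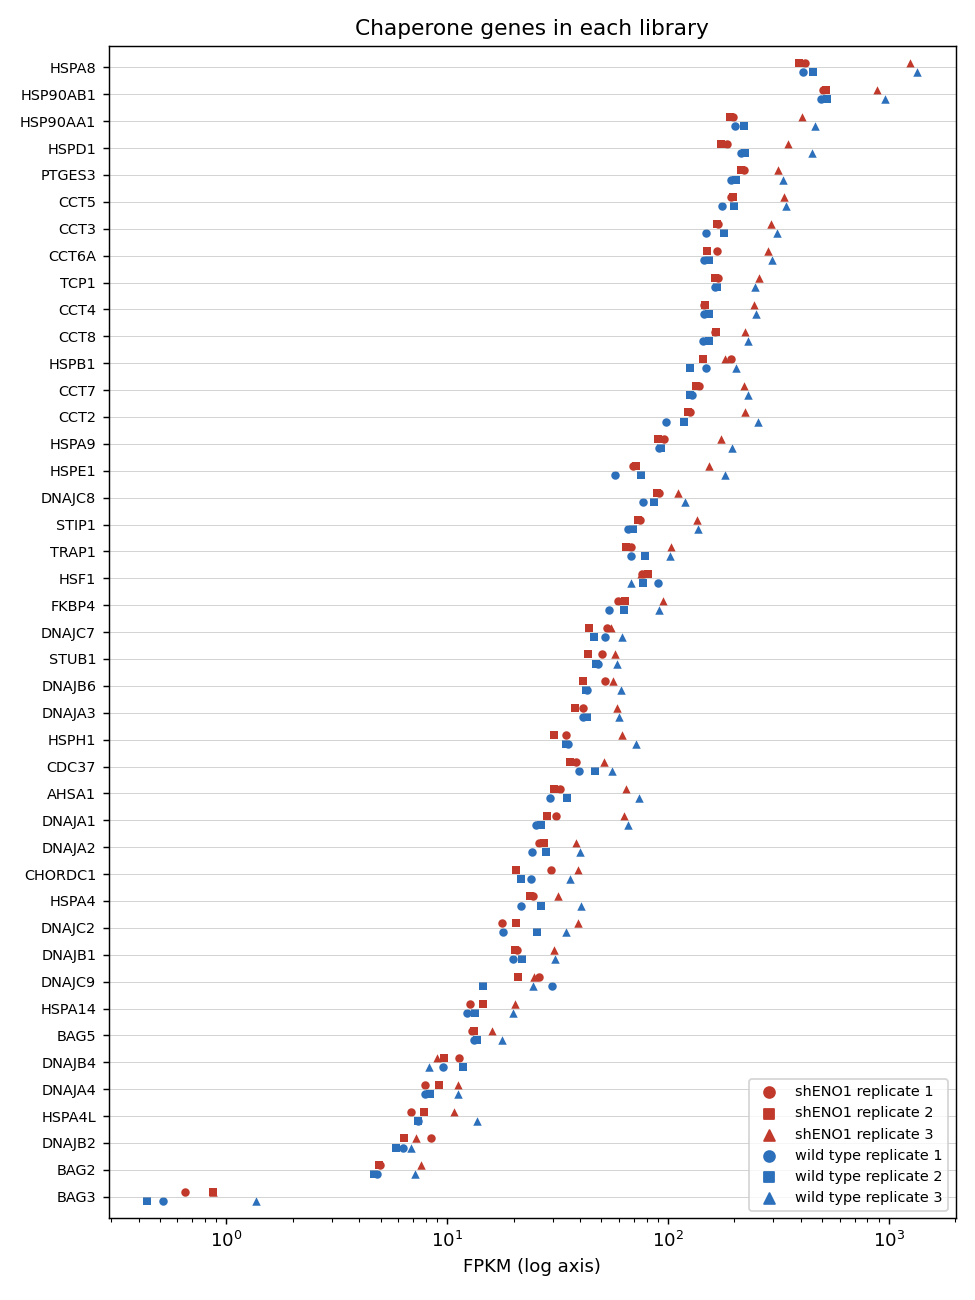
FPKM of the 43 tested chaperone genes in each library, on a log axis, with shENO1 in red and wild type in blue and a marker shape for each replicate number, ordered by mean level. The triangles of the libraries numbered 3 lie to the right of both other libraries of their group for 38 of the 43 genes, while red and blue points of the same shape lie close together.

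Between the groups, 0 of the 43 genes passed an adjusted p under 0.05 with a change over 2-fold (limma with Benjamini-Hochberg adjustment over all 17870 genes tested). The share of all genes called by the same rule was 0%, so the targeted gene ENO1 was not called either. Its mean in shENO1 was 22.4% of that in wild type. A count of 0 by this rule therefore does not show that no gene differs. The study's count test on reads did call genes at these thresholds. At an unadjusted p under 0.05 there were also 0 chaperone genes, against 1.98% of all genes, or 1.07% counting those lower in shENO1. The log2 fold changes of shENO1 over wild type ran from -0.31 for HSPD1 to 0.19 for DNAJB2, with a median of 0.01, against -0.0036 for all genes tested. Of the 43 genes 22 lay above 0, beside 49.2% of all genes. This count was 26 without both libraries numbered 3, and moved more when 1 library was left out and its pair kept, to 4 without wild type replicate 2 and to 40 when wild type replicate 3 was omitted. For 0 genes did the 3 shENO1 values all lie above the 3 wild type values (2.71% of all genes), and for 0 all below (3.28%). The 95% intervals of these differences lay within 1.5-fold either way for 12 of the 43 genes and within 2-fold for 37. With the replicate number as a block, all 43 lay within 2-fold and 42 within 1.5-fold.

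The replicate numbers carried most of the spread. With the number as a block in the limma fit, the median standard error of the 43 log2 fold changes was 0.0788, against 0.250 without it. The block left 0 of the 43 called, beside 0.00560% of all genes, and 1 gene, HSPD1, at an unadjusted p under 0.05, beside 7.55% of all genes. HSPD1 was lower in shENO1, as were 3.78% of all genes at that threshold. In 3 of 3 same-numbered pairs, 7 of the 43 genes were lower in shENO1, beside 15.8% of all genes, and 5 were higher, beside 14.1%, so that these counts stood near the shares of all genes.

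**Figure D2:**
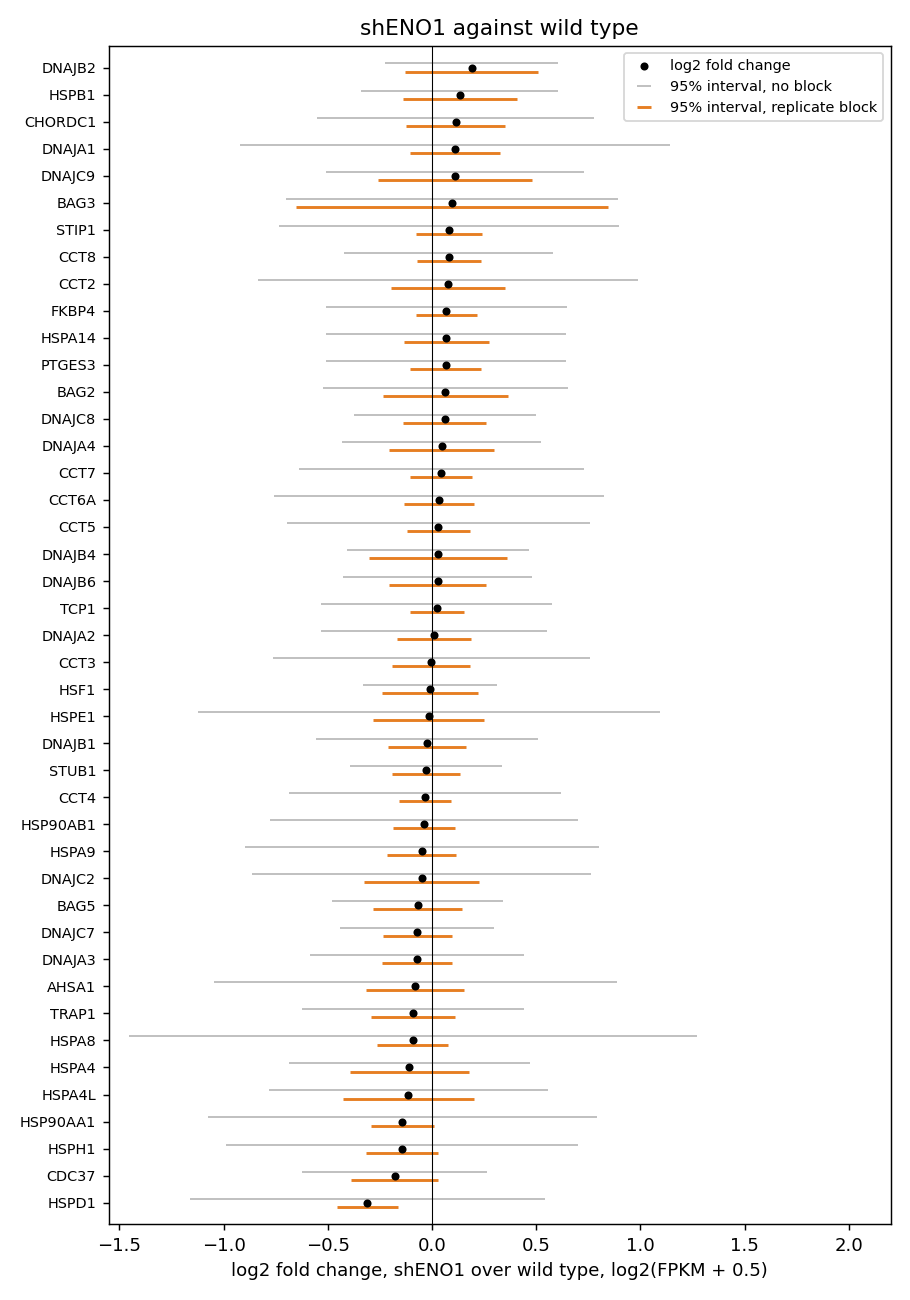
Log2 fold change of shENO1 over wild type for each of the 43 genes (points), with the 95% interval without the replicate block (grey) and with it (orange). All points lie between -0.31 and 0.19, and with the block 1 interval, that of HSPD1, leaves out 0.

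The libraries numbered 3 differed from those numbered 1 and 2 within both groups. These libraries were singled out from the values themselves, so the comparison is given as a description and was not tested. Of the 43 genes 20 were over 1.5-fold higher in replicate 3 than in the mean of replicates 1 and 2 in both groups, beside 5.99% of all genes tested and 8.74% of the protein-coding genes with a mean of at least 10 FPKM. The count was 13 with quantile normalization, beside 6.3% of all genes in that setting. No chaperone gene was over 1.5-fold lower in both, beside 8.07% of all genes and 4.28% of the abundant protein-coding ones. At 2-fold there were 5 higher in both, HSPA8, HSPE1, DNAJA1, AHSA1 and HSP90AA1, beside 1.14% of all genes. Replicate 3 exceeded both other libraries of its group, in both groups, for 38 of the 43, beside 26.4% of all genes and 42.8% of the abundant protein-coding ones. The median difference of the 43 was 0.57 in shENO1 and 0.66 in wild type on the log2(FPKM + 0.5) scale, against -0.02 and -0.04 for all genes tested. Replicates 1 and 2 differed by a median of 0.09 in shENO1 and 0.11 in wild type. The libraries numbered 3 also held the largest protein-coding sums of their groups, as given above. Of the 13 myeloid markers 5, LYZ among them, were above both other libraries in replicate 3 of both groups, a share between those of all genes and of abundant protein-coding genes, and 2, CSF3R and ITGAM, were below both. The estimated relative depth of the libraries numbered 3 was the highest of their groups as well, at 1.27 in shENO1 and 1.16 in wild type. These estimates rest on the most common ratio to wild type replicate 1, at which 12.6% and 10.5% of the low genes compared lay. The part of these in the differences was not tested, and in bulk RNA more cells of a kind and more RNA per cell cannot be told apart.

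**Figure D3:**
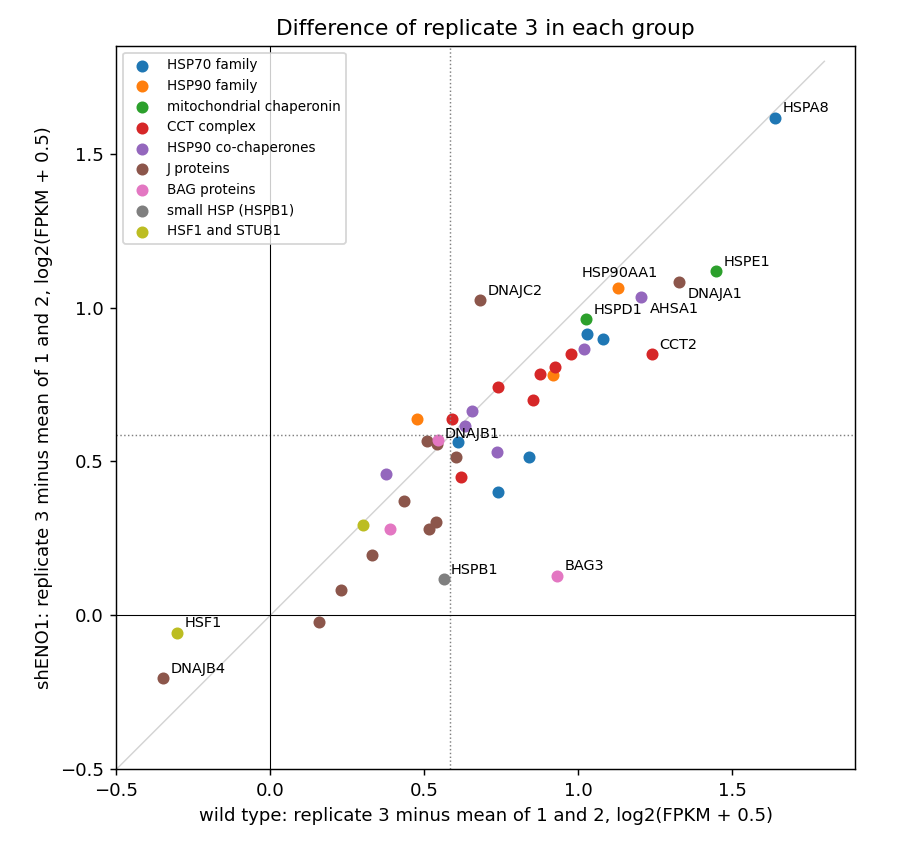
Replicate 3 minus the mean of replicates 1 and 2 on the log2(FPKM + 0.5) scale, in shENO1 (vertical axis) against wild type (horizontal axis), for the 43 genes coloured by role. Dotted lines mark 1.5-fold and the grey diagonal marks equal differences. The upper right holds 20 genes, led by HSPA8 at 1.62 and 1.64, and HSF1 and DNAJB4 lie below 0 on both axes.

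HSF1 binds inverted repeats of the unit GAA, and such repeats were looked for in the promoters of the 45 genes. RefSeq windows running from 250 bases before to 50 bases after a transcript start (build GRCh38.p14) were found for 40 of the 45 genes. A run of 3 alternating units, GAANNTTCNNGAA or TTCNNGAANNTTC, was present in 7 of these genes (7 of their 57 windows), against 0.490% of 35116 windows of all genes. These were HSPA8, HSP90AA1, HSP90AB1, HSPD1, CHORDC1, DNAJA1 and DNAJB6. Both strands are covered, since each of these forms is the reverse complement of the other. The shorter run of 2 units, GAANNTTC or TTCNNGAA, which also lies inside every longer run, was present in 20 of the 40 genes (21 of 57 windows) and in 13.5% of all windows. Stretches of 5 of the 7 promoters are printed in the direction of transcription to show where the runs sit and how they differ, with the units of the 3-unit runs in capitals. They are chr11:123062137-123062381 (minus strand) for HSPA8, chr14:102087045-102087154 (minus) for HSP90AA1, chr6:44247768-44247857 (plus) for HSP90AB1, chr2:197500031-197500090 (minus) for HSPD1 and chr11:90223050-90223149 (minus) for CHORDC1.
HSPA8: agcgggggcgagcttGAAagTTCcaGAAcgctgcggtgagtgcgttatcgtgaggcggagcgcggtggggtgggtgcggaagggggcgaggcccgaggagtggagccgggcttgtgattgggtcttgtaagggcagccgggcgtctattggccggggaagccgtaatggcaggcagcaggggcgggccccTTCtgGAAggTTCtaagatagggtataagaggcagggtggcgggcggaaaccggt
HSP90AA1: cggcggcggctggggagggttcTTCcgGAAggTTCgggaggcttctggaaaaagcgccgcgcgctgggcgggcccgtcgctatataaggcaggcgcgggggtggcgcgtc
HSP90AB1: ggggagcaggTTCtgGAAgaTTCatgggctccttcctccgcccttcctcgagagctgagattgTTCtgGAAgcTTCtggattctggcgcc
HSPD1: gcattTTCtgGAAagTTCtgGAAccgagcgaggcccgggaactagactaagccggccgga
CHORDC1: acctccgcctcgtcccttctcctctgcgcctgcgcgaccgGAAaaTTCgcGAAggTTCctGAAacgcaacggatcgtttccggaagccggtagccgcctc
HSPA8 and HSP90AB1 each hold 2 separate runs, HSPD1 holds 4 units in a row and CHORDC1 holds 5. Of the 7 genes with a 3-unit run 6 were over 1.5-fold higher in replicate 3 of both groups, DNAJB6 being the other, with a median difference of 0.99. Of the 31 tested genes with a window and no such run 12 were, with a median of 0.56. HSPE1 is counted among these 31 because the run between it and HSPD1 lies outside its window. Of 37 tested genes outside the 45 that hold a 3-unit run 2 were over 1.5-fold higher in replicate 3 of both groups, or 5.41%, beside 6.98% of 9691 other genes with a window and no run. These are matches of letters, and binding of HSF1 was not measured. HSF1 is known to raise many of the 45 listed genes, so a higher share of runs than in all windows can come from the list itself. The part of the runs in the differences of replicate 3 was not tested.

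HSPA8, the HSP70 that every cell makes without stress, had the largest difference in replicate 3 among the 43. It stood at 1246 FPKM in shENO1 replicate 3, against 419 and 393 FPKM in shENO1 replicates 1 and 2, and at 1343 FPKM in wild type replicate 3, against 408 and 455 FPKM in wild type replicates 1 and 2. This was 3.07-fold in shENO1 and 3.11-fold in wild type, and the groups overlapped (log2 fold change of shENO1 over wild type -0.09, SE 0.58). HSPA8 made up 17.6% and 17.7% of the 43 genes' summed FPKM in the libraries numbered 3 of shENO1 and wild type, against 10.1% to 11.2% in the others.

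The other HSP70 genes differed less. HSPA9, the HSP70 of the mitochondrial matrix that pulls in imported proteins, was at 174 FPKM in shENO1 replicate 3, against 95.8 and 90.2 FPKM in the other shENO1 libraries, and at 195 FPKM in wild type replicate 3, against 91.2 and 93.2 FPKM in wild type replicates 1 and 2. HSPH1, an HSP110 that exchanges the nucleotide of HSP70, was at 61.7 FPKM in shENO1 replicate 3, against 34.7 and 30.4 FPKM in shENO1 replicates 1 and 2, and at 71.9 FPKM in wild type replicate 3, against 35.3 and 34.7 FPKM in wild type replicates 1 and 2. Both libraries numbered 3 were high for these genes and the groups overlapped. The log2 fold change of HSPH1 between shENO1 and wild type was -0.14 (SE 0.36). HSPA4L, a relative of HSPH1, was at 10.7 FPKM in shENO1 replicate 3, against 6.86 and 7.89 FPKM in shENO1 replicates 1 and 2, and at 13.6 FPKM in wild type replicate 3, against 7.41 and 7.35 FPKM in wild type replicates 1 and 2. HSPA4 and HSPA14, an HSP70 that works at the ribosome, had differences of 0.40 and 0.56 in shENO1 and 0.74 and 0.61 in wild type. A gene of the same GENCODE name as HSPA14 overlaps it on the same strand and was listed under another name at 7.25 to 13.5 FPKM, so the division of reads between them is uncertain. The ratio of HSPA8 to HSPA9 was 7.17 in shENO1 replicate 3 and 6.87 in wild type replicate 3, against 4.36 to 4.88 in the other libraries, so the cytosolic form differed more than the mitochondrial form.

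HSPA1A (chr6:31815464-31817946) and HSPA1B (chr6:31827735-31830255, both GENCODE release 29 on GRCh38) are the defining genes of the heat shock response and were listed at 0 throughout. Their longest transcripts, of 2483 and 2521 bases, share a run of 1715 identical bases, and 69.88% of the windows of 100 bases in HSPA1A occur in HSPA1B. Of 19805 protein-coding rows 4171 were listed at 0 in all 6 libraries, including genes used by every cell such as SLC25A6. A 0 for this pair can therefore be a failed estimate, and nothing about their level is read from it.

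Of the HSP90 genes, HSP90AB1 is made constantly and HSP90AA1 is the form induced by stress. HSP90AA1 was at 406 FPKM in shENO1 replicate 3, against 198 and 190 FPKM in the other shENO1 libraries, and at 462 FPKM in wild type replicate 3, against 202 and 221 FPKM in wild type replicates 1 and 2. HSP90AB1 was at 881 FPKM in shENO1 replicate 3, against 504 and 521 FPKM in shENO1 replicates 1 and 2, and at 964 FPKM in wild type replicate 3, against 495 and 525 FPKM in wild type replicates 1 and 2. The ratio of HSP90AB1 to HSP90AA1 was 2.17 in shENO1 replicate 3 and 2.09 in wild type replicate 3, below the 2.38 to 2.74 of the other libraries, so the inducible form differed more. HSP90AA1 had a log2 fold change of -0.14 between shENO1 and wild type (SE 0.40), with an unadjusted p of 0.0612 in the limma fit with the block. TRAP1, the HSP90 of mitochondria, was 1.56-fold higher in shENO1 replicate 3 and 1.39-fold higher in wild type replicate 3.

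HSPD1 and HSPE1, the chamber and the lid of the mitochondrial chaperonin, are neighbours read in opposite directions, with RefSeq starts 539 bases apart on chromosome 2. The 4 units printed for HSPD1 lie between the 2 starts, ending 294 bases before that of HSPE1. HSPD1 was at 350 FPKM in shENO1 replicate 3, against 185 and 174 FPKM in the other shENO1 libraries, and at 447 FPKM in wild type replicate 3, against 214 and 224 FPKM in wild type replicates 1 and 2. HSPE1 was at 154 FPKM in shENO1 replicate 3, against 69.7 and 71.6 FPKM in shENO1 replicates 1 and 2, and at 182 FPKM in wild type replicate 3, against 57.8 and 75.8 FPKM in wild type replicates 1 and 2. Replicate 3 was 1.95-fold higher in shENO1 and 2.04-fold higher in wild type for HSPD1, and 2.18-fold higher in shENO1 and 2.72-fold higher in wild type for HSPE1.

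HSPD1 had the largest difference between the groups among the 43. Its mean was 236 ± 98.6 FPKM in shENO1 and 295 ± 132 FPKM in wild type (SD, n = 3 each), which gave a log2 fold change of -0.31 (SE 0.36, limma adjusted p = 0.99986). The groups overlapped, and an exact two-sided permutation test gave p = 0.5, where 3 against 3 libraries cannot go below 0.1. That test ignores the replicate number. Arrangements with both libraries numbered 3 in the same group give larger differences than the observed one, so it cannot weigh a difference within pairs. It was lower in shENO1 in 3 of 3 pairs, with a log2 fold change of -0.29 without both libraries numbered 3. Leaving out wild type replicate 3 alone gave 0.03, with shENO1 replicate 3 then lacking its pair. With the replicate block the limma SE was 0.057, the 95% interval ran from -0.45 to -0.17, the unadjusted p was 0.00243 and the adjusted p over all genes 0.585, so the gene did not pass. HSPE1 had a log2 fold change of -0.02 (SE 0.47). The ratio of HSPE1 to HSPD1 was 0.377, 0.411 and 0.440 in the shENO1 libraries, against 0.270, 0.338 and 0.406 in the wild type libraries, higher in shENO1 in each pair, though the groups overlapped. HSPE1 has 26 annotated pseudogene copies, with which reads may be shared and whose summed level was 4.2% of its own in shENO1 replicate 3 and 4.58% in wild type replicate 3, against 12.1% to 27.9% in the others, and it overlaps the read-through gene HSPE1-MOB4 at 8.18 to 19.4 FPKM. The part of these rows in the level of HSPE1 was not tested. For HSPD1 the copies reached at most 0.676%.

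The 8 subunits of CCT, which assemble into 2 stacked rings with each subunit once in a ring, stood at like levels. In every library the highest subunit was CCT5, and the highest and the lowest differed by 1.49-fold to 1.78-fold. Their sum was 2087 FPKM in shENO1 replicate 3 and 2163 FPKM in wild type replicate 3, against 1151 to 1269 FPKM in the other 4 libraries. All 8 were above both other libraries in replicate 3 of both groups, and 7 were over 1.5-fold higher in both, CCT8 (1.37-fold in shENO1 and 1.54-fold in wild type) being the other. Of all genes 26.4% and 5.99% met these 2 rules. The 7 became 5 with each library scaled to the same protein-coding sum and 2 with quantile normalization, while all 8 stayed above 0 in both groups. CCT2 had the largest difference of the complex on average over the groups, at 224 FPKM in shENO1 replicate 3 against 126 and 123 FPKM in shENO1 replicates 1 and 2, and at 255 FPKM in wild type replicate 3 against 98.3 and 118 FPKM in wild type replicates 1 and 2. Between the groups the 8 log2 fold changes lay between -0.03 and 0.08. The pseudogene copies of CCT6A held 5.57% of its level in shENO1 replicate 3 and 5.03% in wild type replicate 3, against 10.6% to 16.2% in the others. COMMD1, which overlaps CCT4 on the opposite strand, moved with it, at 57.9 and 65.2 FPKM in the libraries numbered 3 of shENO1 and wild type against 25.1 to 39.2 FPKM in the others, and its part in the value of CCT4 was not tested.

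**Figure D4:**
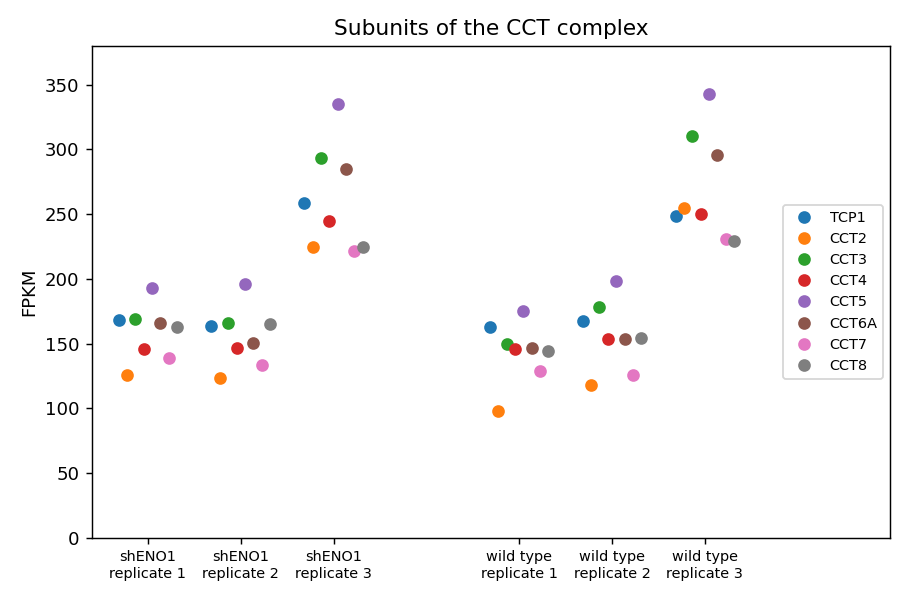
FPKM of the 8 CCT subunits in the shENO1 libraries (left) and the wild type libraries (right), 1 point per subunit and library, set side by side within a library. In both groups replicate 3 holds the highest point of every subunit, and CCT5 is at the top of each library.

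The co-chaperones of HSP90 were close behind, with 4 of 6 over 1.5-fold higher in replicate 3 of both groups, beside 5.99% of all genes. AHSA1, which speeds up the ATPase of HSP90, was at 64.9 FPKM in shENO1 replicate 3, against 32.5 and 30.4 FPKM in shENO1 replicates 1 and 2, and at 74.3 FPKM in wild type replicate 3, against 29.2 and 35.0 FPKM in wild type replicates 1 and 2. STIP1, which bridges HSP70 and HSP90, was at 135 FPKM in shENO1 replicate 3, against 74.6 and 73.2 FPKM in shENO1 replicates 1 and 2, and at 137 FPKM in wild type replicate 3, against 65.6 and 69.2 FPKM in wild type replicates 1 and 2. FKBP4, a partner of steroid receptors, was at 94.7 FPKM in shENO1 replicate 3, against 59.6 and 63.7 FPKM in shENO1 replicates 1 and 2, and at 90.9 FPKM in wild type replicate 3, against 54.2 and 63.2 FPKM in wild type replicates 1 and 2. All 3 were highest in the libraries numbered 3, and the groups overlapped. CHORDC1, the gene with 5 units in its promoter, was at 39.2 FPKM in shENO1 replicate 3, against 29.4 and 20.4 FPKM in shENO1 replicates 1 and 2, and at 36.0 FPKM in wild type replicate 3, against 23.9 and 21.6 FPKM in wild type replicates 1 and 2. CDC37, which brings kinases to HSP90, was at 51.2 FPKM in shENO1 replicate 3, against 38.2 and 36.0 FPKM in shENO1 replicates 1 and 2, and at 55.9 FPKM in wild type replicate 3, against 39.5 and 46.6 FPKM in wild type replicates 1 and 2. CDC37 had a log2 fold change of -0.18 between shENO1 and wild type (SE 0.19). Its exact two-sided permutation p was 0.5, from a test that ignores the replicate number. PTGES3, the p23 that steadies the closed HSP90, was 1.45-fold higher in shENO1 replicate 3 and 1.67-fold higher in wild type replicate 3.

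Among the 12 J proteins 2 passed 1.5-fold in replicate 3 of both groups. Their share of 16.7% rests on few genes and stands beside 5.99% of all genes and 8.74% of abundant protein-coding genes. DNAJA1, a main partner of HSPA8, was at 63.4 FPKM in shENO1 replicate 3, against 31.0 and 28.4 FPKM in shENO1 replicates 1 and 2, and at 65.8 FPKM in wild type replicate 3, against 25.3 and 26.5 FPKM in wild type replicates 1 and 2. DNAJC2, which works with HSPA14 at the ribosome, was at 39.2 FPKM in shENO1 replicate 3, against 17.6 and 20.5 FPKM in shENO1 replicates 1 and 2, and at 34.6 FPKM in wild type replicate 3, against 17.9 and 25.5 FPKM in wild type replicates 1 and 2. PSMC2, a proteasome gene that overlaps DNAJC2 on the opposite strand, was also highest in the libraries numbered 3, and its part was not tested. DNAJB1, the J protein most closely tied to the heat shock response, was at 30.4 FPKM in shENO1 replicate 3, against 20.7 and 20.3 FPKM in shENO1 replicates 1 and 2, and at 30.7 FPKM in wild type replicate 3, against 19.9 and 21.9 FPKM in wild type replicates 1 and 2. This was 1.48-fold in shENO1 and 1.47-fold in wild type, just under the limit. DNAJA2, DNAJA3, DNAJA4, DNAJB6, DNAJC7 and DNAJC8 differed in the same direction without passing 1.5-fold in both groups, by between 0.20 and 0.57 in shENO1 and between 0.33 and 0.60 in wild type.

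DNAJB4 went the other way, at 9.04 FPKM in shENO1 replicate 3, against 11.3 and 9.71 FPKM in shENO1 replicates 1 and 2, and at 8.25 FPKM in wild type replicate 3, against 9.62 and 11.8 FPKM in wild type replicates 1 and 2. DNAJB2, a J protein that also binds ubiquitin, had the highest log2 fold change between the groups, 0.19 (SE 0.18). It was at 8.45, 6.37 and 7.23 FPKM in shENO1 replicates 1 to 3, against 6.33, 5.88 and 6.86 FPKM in wild type replicates 1 to 3. The groups overlapped, and the exact two-sided permutation p was 0.2. DNAJC9, a chaperone of newly made histones, was at 26.0, 20.9 and 24.7 FPKM in shENO1 replicates 1 to 3, against 29.8, 14.5 and 24.5 FPKM in wild type replicates 1 to 3, with no library numbered 3 at the top.

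The remaining genes did not pass 1.5-fold in both groups. HSPB1, a small heat shock protein that binds unfolded clients without ATP, was at 181 FPKM in shENO1 replicate 3, against 193 and 145 FPKM in shENO1 replicates 1 and 2, and at 203 FPKM in wild type replicate 3, against 149 and 126 FPKM in wild type replicates 1 and 2. BAG3, which joins HSP70 to autophagy and is strongly induced by heat, stood near the filter, at 0.649, 0.872 and 0.873 FPKM in shENO1 replicates 1 to 3, against 0.514, 0.439 and 1.36 FPKM in wild type replicates 1 to 3. BAG2 and BAG5 were 1.53-fold and 1.22-fold higher in shENO1 replicate 3, and 1.51-fold and 1.32-fold higher in wild type replicate 3. BAG2 thus passed 1.5-fold on plain FPKM and not on the log2(FPKM + 0.5) scale that the counts use. HSF1 was at 75.5 FPKM in shENO1 replicate 3, against 76.2 and 80.8 FPKM in shENO1 replicates 1 and 2, and at 67.7 FPKM in wild type replicate 3, against 90.4 and 77.3 FPKM in wild type replicates 1 and 2. Its transcript was thus lowest, narrowly so in shENO1, in the libraries numbered 3 of both groups, as were 29.5% of all genes. DGAT1, which overlaps HSF1 on the opposite strand, was also lowest there, at 38.2 FPKM in shENO1 and 37.2 FPKM in wild type, and its part was not tested. STUB1, the ubiquitin ligase that marks clients of HSP70 for destruction, was 1.23-fold higher in replicate 3 of each group.

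The 14 genes listed as heat-inducible were HSPA1A, HSPA1B, HSPA8, HSPH1, HSPB1, HSP90AA1, HSPD1, HSPE1, DNAJB1, BAG3, CHORDC1, AHSA1, STIP1 and FKBP4, several of which, HSPA8 above all, are also made without stress. Of these 12 were tested, and 9 of them were over 1.5-fold higher in replicate 3 of both groups, DNAJB1, HSPB1 and BAG3 being the others. This share of 75% stands beside 5.99% of all genes and 8.74% of abundant protein-coding genes. It was not particular to this list, being 87.5% for the CCT subunits and 64.3% for chaperones of the endoplasmic reticulum. Without HSPA8 the count was 8 of 11. The log2 fold changes of the 12 between the groups had a median of -0.02, with 5 of 12 above 0, beside 49.2% of all genes.

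Other genes of protein folding were read for comparison from lists chosen by function. Their counts over 1.5-fold higher in replicate 3 of both groups are to be read against the 5.99% of all genes. Of 36 tested chaperones outside the 45, many of them further J proteins, 2 were higher, HSPBP1 and BAG1, a share of 5.56% that lay near that of all genes, and 1, DNAJC4, was lower. Of 10 partners of mitochondrial folding and proteolysis 2 were higher, GRPEL1, the exchange factor of HSPA9, and DNLZ, which keeps HSPA9 soluble. Of 6 prefoldin subunits, which hand clients to CCT, 2 were higher, so that these shares rest on few genes. Among 14 chaperones of the endoplasmic reticulum 9 were higher (64.3%), and HSPA5, their HSP70, stood at 226 FPKM in shENO1 replicate 3, against 81.8 and 103 FPKM in shENO1 replicates 1 and 2, and at 243 FPKM in wild type replicate 3, against 73.8 and 106 FPKM in wild type replicates 1 and 2. Among 31 proteasome subunits 15 were higher (48.4%), and all 31 exceeded both other libraries in both groups. Between shENO1 and wild type 0 genes of these lists passed in limma without the block, at the adjusted or the unadjusted threshold. Of all genes 0% and 1.98% did. The blocked fit was not read for these lists. Of 3 tested relatives and regulators of HSF1 none was higher in replicate 3 of both groups, and HSF4 was lower, at 3.85 FPKM in shENO1 replicate 3, against 7.33 and 6.37 FPKM in shENO1 replicates 1 and 2, and at 3.84 FPKM in wild type replicate 3, against 16.9 and 12.7 FPKM in wild type replicates 1 and 2.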

How the data were processed

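The deposited table holds FPKM values that the authors made with STAR, Cufflinks and Cuffnorm on hg38/GRCh38, per the submitters' processing notes. Versions, Cuffnorm's library scaling and the use of strand are not given in the sources used here. For RNA extraction the labels give a column kit and the study's methods TRIzol. Annotation came from GENCODE release 29, in which 58010 of the 58273 rows were found.

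Genes reaching 0.5 FPKM in 3 or more of the 6 libraries were transformed as log2(FPKM + 0.5), a scale that understates changes of low genes. The whole table was fitted with limma 3.58.1 (R 4.3.3), with an intensity trend, two-sided tests, Benjamini-Hochberg adjustment and no covariate. Calls needed an adjusted p under 0.05 and a log2 fold change beyond 1 either way, as in the study, whose count test needs reads. The fit without the block was tried on simulated data with independent noise in each library. Those data held no shared replicate effect, and the blocked fit was not tried on them. Tables were handled with Python 3.11.15, pandas 2.3.3 and numpy 2.4.6. Replicate 3 was set against the mean of replicates 1 and 2 on the same scale, with a limit of 1.5-fold.

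Deviations from the group means correlated at 0.312, 0.176 and 0.491 between same-numbered libraries and at -0.390 to 0.144 between the others. The deviations within a group sum to 0, so these correlations depend on each other. The match was least clear for number 2. Replicate 2 of shENO1 correlated at 0.176 with wild type replicate 2 and at 0.144 with wild type replicate 1. The numbers come from the sample titles, which do not say that same-numbered libraries belong together. Reading them as pairs therefore rests on the values, and a limma fit blocked on replicate number stands beside the comparison. The residual degrees of freedom are 2 with the block and 4 without.

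Every library's value is given for the heat-inducible genes, the 5 highest and 5 lowest log2 fold changes, the genes with the largest difference in replicate 3 (up to 5 each way) and the 4 smallest p with the block, and, chosen after their values were seen, HSPA9, HSP90AB1, CCT2 and DNAJC2. Genes and lists were chosen with earlier results of these data known. Alternatives covered the pseudocount, the filter, scaling, weights, the trend, the block and leaving out libraries. Overlapping genes concern 31 of the 45, in 22 cases a row of at least 0.5 FPKM, and 20 have annotated pseudogene copies, so reads shared with these may be divided differently by other tools.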

Additional observations from a re-analysis of the deposited data

How the results depend on the processing

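No chaperone gene was called between shENO1 and wild type in any of the 16 alternatives run. The number at an unadjusted p under 0.05 was 1 instead of 0 with the replicate block and 1 without both libraries numbered 3, HSPD1 in each case. The median log2 fold change of the 43 ran from -0.21 (without shENO1 replicate 3) to 0.24 (without wild type replicate 3) when a library was left out, and the number above 0, 22 of 43 with all libraries, was then between 4 and 40. It was 32 when shENO1 replicate 1 was omitted, 37 when replicate 2 of that group was, 6 when its replicate 3 was, and 6 when wild type replicate 1 was. For the 19 tested genes that the naming rule gives, 43 of 303 log2 fold changes had another sign, and CDC37 and DNAJB2 kept theirs in every alternative run. HSPD1 was at 0.03 without wild type replicate 3 and at -0.29 without both libraries numbered 3, where 26 of the 43 lay above 0.

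The number over 1.5-fold higher in replicate 3 of both groups was 20. It was 13 with quantile normalization (6.3% of all genes in that setting, against 5.99%), 15 with each library scaled to the same protein-coding sum (3.73% of all genes), 17 to 21 when a library numbered 1 or 2 was left out (5.14% to 6.66%), and 5 at 2-fold, a limit chosen after seeing the data, beside 1.14% of all genes. Those 5 were HSPA8, HSPE1, DNAJA1, AHSA1 and HSP90AA1. For CCT it was 7 of 8, but 5 with the protein-coding scaling and 2 with quantile normalization, all 8 staying above 0 in both groups. The protein-coding scaling moved the median difference of all genes to -0.13 in shENO1 and -0.18 in wild type. Relative to all genes the 43 lay 0.60 higher in shENO1 and 0.69 in wild type, 0.59 and 0.68 with that scaling, and 0.49 and 0.54 with quantile normalization. HSPB1 was not above 0 in both groups under quantile normalization, nor DNAJC9 under the protein-coding scaling.

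Depth in reads is not known from FPKM, and 3 libraries a group left 6 of the 43 intervals reaching beyond 2-fold without the block and 0 with it.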
